A study of Homo sapiens with 6 samples.

Results

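The serpin genes were followed in A549 cells, a human lung adenocarcinoma line long kept in culture, after knockdown of METTL3, the catalytic subunit of the complex that writes N6-methyladenosine (m6A) on mRNA. Members were the rows of the count table whose symbol is SERPIN, a clade letter from A to I and a number. Described here are 34 of 57781 rows. Of these, 15 were among the 15125 genes with enough reads to be tested. RNA was sequenced from 3 libraries of cells carrying the empty vector (genotype label WT) and 3 libraries of cells carrying short hairpin RNA against METTL3 (shMETTL3, genotype label METTL3 knockdown). All cells were grown in DMEM with fetal bovine serum, and all are of the same line. Per the study's methods, hairpins were cloned into a plasmid (spelled pSupper-neo there) and plasmids were transfected with a lipid reagent. How many METTL3 hairpins were used, and how long after transfection RNA was taken, is not given in the sources used here. In the count table the knockdown libraries are headed sh1, sh2 and sh3, so their SD may also cover differences between hairpins if there were several. The labels do not say that libraries of a group came from separate cultures, so p-values measure the spread between these libraries, which may be technical.

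Serpins share a folded core with an exposed reactive loop. A protease that cuts the loop is trapped in a covalent complex, so most serpins are single-use inhibitors of serine or cysteine proteases. Some members inhibit nothing and work as hormone carriers or chaperones. Clade A genes encode mostly secreted plasma proteins made in liver. Clade B proteins lack a classical signal peptide and act largely inside cells, and clade E proteins act outside them on trypsin-like proteases. The family lies partly in tandem arrays left by gene duplication, of which the clade A array on chromosome 14 and the clade B arrays on chromosomes 6 and 18 are the best known.

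Library totals ran from 14931426 to 19108928 counts. At these depths 3 counts in a library, taken as the floor, equal 0.149 to 0.189 CPM (counts relative to the TMM-scaled library total). Floors and bounds cover counting error only. Counts of METTL3 itself were 887, 846 and 808 with vector and 364, 399 and 307 with shMETTL3. Its level was 49.8 ± 0.675 CPM (SD, n = 3) with vector and 19.3 ± 0.525 CPM (SD, n = 3) with shMETTL3, which is 38.8% of the vector level (log2 fold change -1.36, adjusted p = 4.57e-16). Epithelial markers summed to 9962 to 10620 CPM in the vector libraries, most of it the keratin KRT8, and to 5150 to 5600 CPM in the shMETTL3 libraries, with 1 of 7 tested markers higher and 5 lower. The alveolar type 2 list summed to 84.6 to 103 CPM and 74.2 to 76.6 CPM, was led by the lipid transporter ABCA3, with 1 of 4 tested markers higher and 2 lower, and had the surfactant genes SFTPA1 and SFTPA2 at or under the floor in every library.

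Of the 15 serpins tested, 11 passed edgeR's quasi-likelihood test at an adjusted p (Benjamini-Hochberg) below 0.05, and 8 of these were higher and 3 lower in shMETTL3 cells. Over all genes tested, 66.6% changed, 33.7% being higher and 32.9% lower. A change of at least 1 on the log2 scale was seen in 5 serpins, against 17.6% of all genes tested. All 5 were higher, as were 57.9% of all genes that changed this much (10.2% of those tested): SERPINB7, SERPINB3, SERPINB4, SERPINE2 and SERPINI1. The CPM values of the 2 groups did not overlap for 10 serpins, as for 69.4% of all genes. The median log2 fold change was 0.25 over the 15 serpins and 0.00 over all genes, and the median size of the change was 0.79 and 0.41. SERPINB3 and SERPINB4 reached the filter on low counts in all 3 libraries of shMETTL3 only, where they are high, so their calls are not independent of the filter. Among the other 13, which passed in both groups, 9 changed (6 higher, 3 lower), 3 of them by at least 1, with a median of 0.24. The number of higher serpins fell from 8 to 5 without vector replicate 1 and in DESeq2, because SERPINA1, SERPINB8 and SERPINF1 were no longer called.

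**Figure D1:**
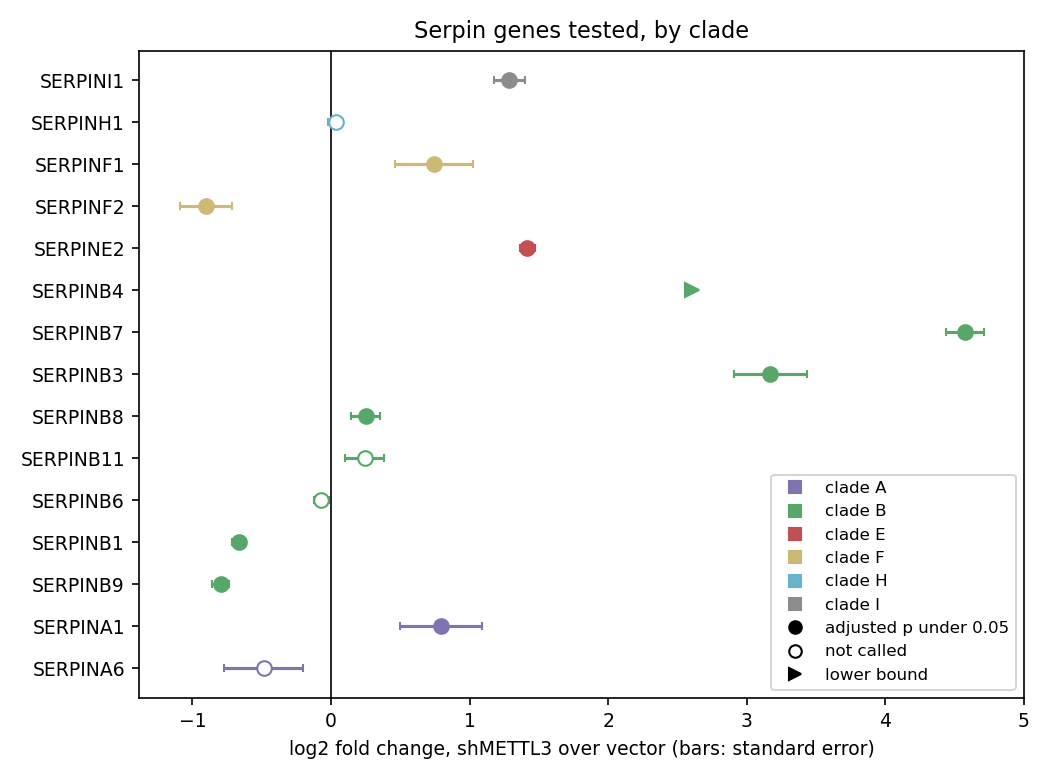
Log2 fold change (shMETTL3 over vector) of the 15 serpins tested, coloured by clade, with bars of 1 standard error. Filled points have an adjusted p under 0.05, and the triangle for SERPINB4 marks the lower bound from 0 counts in all vector libraries. The 5 members past 1 all lie to the right, and SERPINB1, SERPINB9 and SERPINF2 are the filled points to the left of 0.

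SERPINE2, of clade E, encodes protease nexin-1, a cell-surface inhibitor of thrombin, urokinase and other trypsin-like proteases. It had 863, 822 and 780 counts with vector and 2491, 2544 and 2090 with shMETTL3, without overlap. Its level rose 2.67-fold, from 48.3 ± 0.737 to 129 ± 2.38 CPM (SD, n = 3 each; log2 fold change 1.42, SE 0.0536, adjusted p = 1.43e-18). Two-sided exact permutation of the libraries gave p = 0.1, the smallest that 3 against 3 allow. SERPINE2 is a minus-strand gene of chromosome 2 (GRCh37, 224839762 to 224904035). SERPINE3, of the same clade, had 0, 0 and 1 counts with vector and 2, 5 and 1 with shMETTL3 and was not tested. Exons of SERPINE3 share 789 bases with INTS6 on the opposite strand, 30.3% of its exon length, so these few reads could belong to either gene.

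Clade B held 13 rows, of which 8 were tested: 4 were higher, 2 lower and 2 not called. SERPINB7, or megsin, is a clade B serpin known from kidney mesangial cells and from the upper epidermis, where its loss causes a palmoplantar keratosis. It had 17, 26 and 21 counts with vector against 562, 577 and 517 with shMETTL3. The level rose 23.9-fold, from 1.26 ± 0.305 to 30.1 ± 2.09 CPM (SD, n = 3 each; log2 fold change 4.57, SE 0.137, adjusted p = 6.46e-21). Among the members described that had counts in both groups, its log2 fold change was the largest.

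SERPINB3 and SERPINB4 encode the squamous cell carcinoma antigens. The first inhibits papain-like cysteine cathepsins and the second chymotrypsin-like proteases such as cathepsin G. SERPINB3 had 12, 8 and 10 counts with vector and 91, 138 and 69 with shMETTL3, and its level rose from 0.586 ± 0.0974 to 5.31 ± 1.37 CPM (SD, n = 3 each; log2 fold change 3.17, SE 0.261, adjusted p = 2.5e-11). SERPINB4 had no count in any vector library and 22, 28 and 11 counts with shMETTL3. That is 1.07 ± 0.356 CPM (SD, n = 3), at least 6.09-fold higher than the mean vector floor of 0.177 CPM (adjusted p = 2.31e-07). The division of reads between the pair is uncertain. Their canonical transcripts, of 1707 bases each, were 95.7% identical, with identical runs of up to 129 bases. Summed over both genes, the counts were 12, 8 and 10 with vector and 113, 166 and 80 with shMETTL3, which is 10.9 times the vector level in CPM. SERPINB3 also shares 620 exon bases, 36.3% of its exon length, with SERPINB11, which is read from the other strand, and whether the counting used strand is not given in the sources used here.

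The likeness of the pair extends upstream. The windows from 250 bases before to 50 bases after the annotated start, taken from RefSeq (GRCh38.p14), differed at 4 of 300 bases, or were 98.7% identical. Both are printed 5′ to 3′ on the minus strand, with the differing bases in capitals. SERPINB3 is at chr18:63661844-63662143 and SERPINB4 at chr18:63644207-63644506.
SERPINB3: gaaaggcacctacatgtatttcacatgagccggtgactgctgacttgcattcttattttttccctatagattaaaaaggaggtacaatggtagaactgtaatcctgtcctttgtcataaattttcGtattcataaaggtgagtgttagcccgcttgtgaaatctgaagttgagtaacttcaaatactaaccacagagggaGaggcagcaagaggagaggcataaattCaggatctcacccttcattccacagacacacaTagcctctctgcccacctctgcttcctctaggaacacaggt
SERPINB4: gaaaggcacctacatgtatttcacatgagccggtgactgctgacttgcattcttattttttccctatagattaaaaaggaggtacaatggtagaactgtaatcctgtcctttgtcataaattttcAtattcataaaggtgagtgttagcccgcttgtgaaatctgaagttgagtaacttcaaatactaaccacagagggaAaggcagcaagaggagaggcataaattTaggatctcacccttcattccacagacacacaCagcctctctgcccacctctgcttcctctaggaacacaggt

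Short motifs were searched on both strands of 35116 RefSeq promoter windows of this length, 41 of them from 27 of the 34 members. They were TATAAA (the TATA box), TGANTCA (a loose form of the AP-1 site, where N is any base), CACGTG (an E-box) and GTCTAGAC (a palindrome of the SMAD element). A TATAAA stood in 11.5% of all windows and in 11 of the 41 serpin windows, and a TGANTCA in 7.71% and in 9 of the 41. Members with several starts gave several windows, which can overlap, as in SERPINB6. CACGTG stood in 7.26% of all windows and in 1 serpin window, that of SERPINE2, and GTCTAGAC in 0.202% and in none. In the chromosome 18 array SERPINB2, SERPINB7, SERPINB8 and SERPINB13 each had a window with both TATAAA and TGANTCA matches. SERPINB2 and SERPINB13 had too few reads for the test, and the windows of SERPINB7 and SERPINB8, which were tested, are shown. Capitals mark the matches, and those of TATAAA and TGANTCA did not overlap. Of the 3 annotated starts of SERPINB7, the third (chr18:63777531-63777830, plus strand) held TATAAA at bases 124 and 218 (the latter on the reverse strand, read as TTTATA) and TGANTCA at bases 45 and 206. The first SERPINB7 window, not shown, held neither motif, and the second held TGANTCA at bases 97 and 212 without TATAAA. Which start these cells use was not tested. The SERPINB8 window (chr18:63969831-63970130, plus strand) held TATAAA at bases 109 (reverse strand) and 111, which overlap each other, and TGANTCA at bases 66 and 223. Bases are counted from the 5′ end of the window, where base 251 is the annotated start. Neither TATAAA nor TGANTCA was found in the SERPINB3 or SERPINB4 window.
SERPINB7: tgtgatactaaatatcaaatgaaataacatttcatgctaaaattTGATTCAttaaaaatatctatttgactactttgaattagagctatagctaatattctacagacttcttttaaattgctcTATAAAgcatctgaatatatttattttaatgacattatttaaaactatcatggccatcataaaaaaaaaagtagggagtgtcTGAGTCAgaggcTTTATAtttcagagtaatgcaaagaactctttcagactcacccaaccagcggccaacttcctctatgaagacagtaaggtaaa
SERPINB8: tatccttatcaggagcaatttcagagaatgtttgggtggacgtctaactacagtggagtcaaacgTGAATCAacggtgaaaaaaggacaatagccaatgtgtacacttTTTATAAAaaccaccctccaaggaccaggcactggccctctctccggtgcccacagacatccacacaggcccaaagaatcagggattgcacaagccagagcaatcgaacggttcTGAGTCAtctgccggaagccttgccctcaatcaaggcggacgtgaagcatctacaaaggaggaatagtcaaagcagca
These matches are letters in a window, and binding was not measured.

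SERPINB8, which inhibits the proprotein convertase furin in vitro, changed little. It had 197, 180 and 166 counts with vector and 278, 238 and 185 with shMETTL3, or 10.6 ± 0.416 and 12.6 ± 1.52 CPM (SD, n = 3 each; log2 fold change 0.25, SE 0.106, adjusted p = 0.0394). This call was lost without vector replicate 1, 2 or 3 or shMETTL3 replicate 1 (adjusted p from 0.053 to 0.287), in DESeq2 (adjusted p = 0.0981) and without the count filter (adjusted p = 0.0682). Exons of SERPINB8 share 370 bases with HMSD on the same strand. SERPINB11 was not called: its counts were 106, 83 and 87 with vector and 125, 115 and 113 with shMETTL3 (5.39 ± 0.472 and 6.43 ± 0.69 CPM, SD, n = 3 each; log2 fold change 0.24, SE 0.14, adjusted p = 0.125). It was called with a log2 fold change of 0.42 when libraries were scaled by their size alone (adjusted p = 0.0111), a scaling under which the median over all genes stood at 0.18.

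Of the 3 chromosome 6 members of clade B, none was called higher. SERPINB1, the inhibitor of the neutrophil proteases elastase, proteinase 3 and cathepsin G, had 3236, 3222 and 3046 counts with vector and 2237, 2324 and 1930 with shMETTL3. Its level fell from 186 ± 6.28 to 118 ± 3.28 CPM (SD, n = 3 each), 63.1% of the vector level (log2 fold change -0.66, SE 0.0512, adjusted p = 6.77e-12). SERPINB9, the intracellular inhibitor of granzyme B, had 1071, 976 and 999 counts with vector and 646, 726 and 534 with shMETTL3. It fell to 57.6% of the vector level, from 59.7 ± 1.41 to 34.4 ± 1.54 CPM (SD, n = 3 each; log2 fold change -0.79, SE 0.0616, adjusted p = 7.85e-12). In both genes the groups did not overlap. SERPINB6, an inhibitor of cathepsin G and trypsin-like proteases, had 1830, 1777 and 1579 counts with vector and 1776, 2038 and 1544 with shMETTL3, and the groups overlapped in CPM (102 ± 4.79 and 96.8 ± 4.84, SD, n = 3 each). Its log2 fold change of -0.07 (SE 0.0553, adjusted p = 0.277) turned to 0.10 (adjusted p = 0.11) when libraries were scaled by their size alone.

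The other 5 members of clade B had too few reads for the test. SERPINB5, known as maspin and as an epithelial tumor suppressor, had the most, with 10, 15 and 8 counts with vector and 6, 4 and 7 with shMETTL3. SERPINB2, an inhibitor of urokinase known from monocytes, had no count with vector and 3, 0 and 2 with shMETTL3. SERPINB12 and SERPINB13 stayed at or under 3 counts, and SERPINB10 had none.

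**Figure D2:**
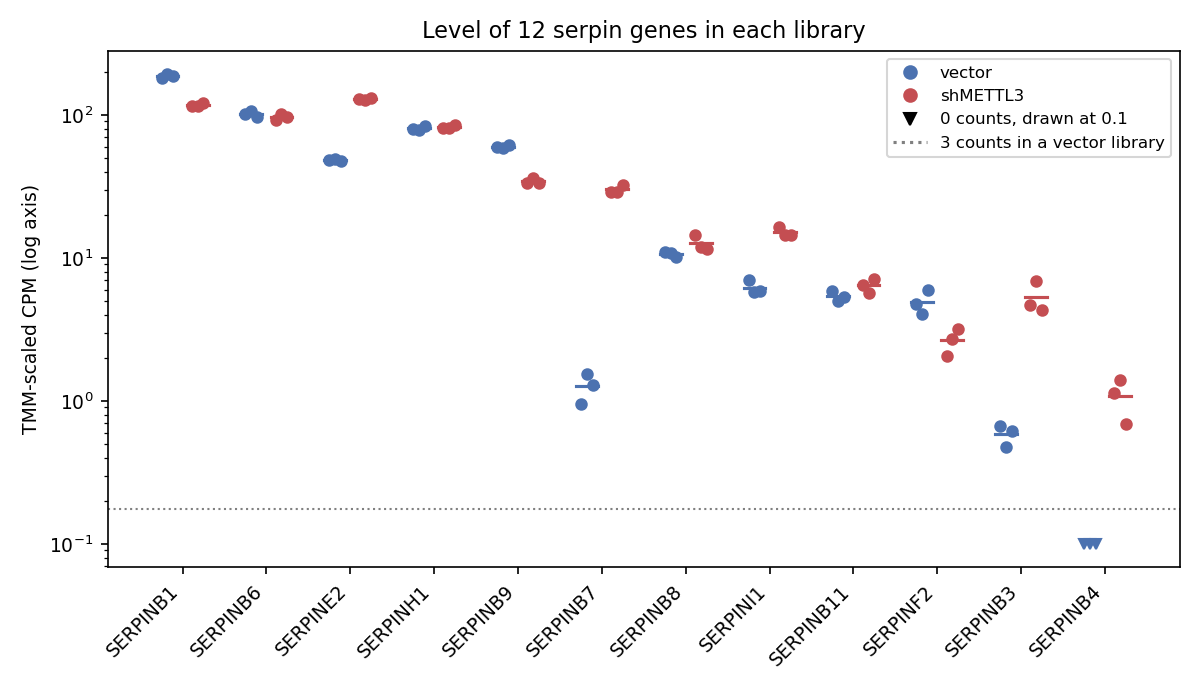
Level in CPM on a log axis, 1 point per library, of the 12 serpins that changed by at least 1 on the log2 scale or were among the 10 most abundant, with lines at the group means. SERPINB7 moves from a mean of 1.26 to 30.1 CPM and SERPINE2 from 48.3 to 129 CPM, while SERPINB6 and SERPINH1 keep overlapping groups and SERPINB4 has 0 counts with vector (triangles drawn at 0.1).

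Clade A had 11 rows and 2 tested members, both at low level. SERPINA1 encodes alpha1-antitrypsin, the plasma inhibitor of neutrophil elastase, and had 16, 22 and 24 counts with vector and 37, 60 and 21 with shMETTL3. Replicate 3 of shMETTL3 lay within the range of the vector libraries in CPM. The level was 1.22 ± 0.3 and 2.07 ± 0.845 CPM (SD, n = 3 each; log2 fold change 0.79, SE 0.296, adjusted p = 0.02). Its call was lost without shMETTL3 replicate 2 (log2 fold change 0.43, adjusted p = 0.269), without vector replicate 1 (adjusted p = 0.0991) and in DESeq2 (adjusted p = 0.0526). SERPINA6 encodes corticosteroid-binding globulin, a hormone carrier. It had 22, 31 and 34 counts with vector and 20, 21 and 26 with shMETTL3 (1.72 ± 0.444 and 1.24 ± 0.344 CPM, SD, n = 3 each), which was not called (log2 fold change -0.49, SE 0.288, adjusted p = 0.137), except without vector replicate 1 (log2 fold change -0.70, adjusted p = 0.0471). Of the rest, SERPINA4 (kallistatin) and SERPINA5 (protein C inhibitor) reached 4 counts in 1 library each. SERPINA3 (alpha1-antichymotrypsin), SERPINA9, SERPINA10 and SERPINA12 stayed at or under 3 counts, and SERPINA2, SERPINA7 (thyroxine-binding globulin) and SERPINA11 had none.

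Hepatocyte markers summed to 2.57 to 3.06 CPM with vector and 4.4 to 6.31 CPM with shMETTL3, with 1 of 2 tested markers higher and 1 lower, and APOA1, APOA2 and TTR stayed at or under the floor in every library. The part of these reads in the values of clade A was not tested.

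In the other clades, 4 of 8 rows were tested. SERPINI1, or neuroserpin, an inhibitor of tissue-type plasminogen activator best known from neurons, had 125, 96 and 96 counts with vector and 316, 292 and 231 with shMETTL3, without overlap. Its level rose 2.45-fold, from 6.19 ± 0.666 to 15.1 ± 1.04 CPM (SD, n = 3 each; log2 fold change 1.29, SE 0.113, adjusted p = 9.16e-11). SERPINH1, or HSP47, is the collagen chaperone of the endoplasmic reticulum and inhibits no protease. It had 1423, 1311 and 1376 counts with vector and 1576, 1624 and 1357 with shMETTL3, with overlapping levels of 80.6 ± 3.18 and 82.6 ± 2.42 CPM (SD, n = 3 each; log2 fold change 0.03, SE 0.0542, adjusted p = 0.585). With library size alone as the scaling it was called, at a log2 fold change of 0.21 (adjusted p = 0.00141).

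The 2 members of clade F moved apart. SERPINF2, alpha2-antiplasmin, is the main plasma inhibitor of plasmin, and had 86, 68 and 97 counts with vector and 40, 54 and 51 with shMETTL3. It fell from 4.93 ± 0.945 to 2.66 ± 0.57 CPM (SD, n = 3 each), 53.9% of the vector level (log2 fold change -0.90, SE 0.189, adjusted p = 0.000145). SERPINF1, pigment epithelium-derived factor, inhibits no protease and is known as an inhibitor of angiogenesis. With 17, 21 and 15 counts with vector and 36, 39 and 22 with shMETTL3, it was called higher, at 1.04 ± 0.187 and 1.73 ± 0.302 CPM (SD, n = 3 each; log2 fold change 0.75, SE 0.28, adjusted p = 0.0206). That call did not hold in DESeq2 (adjusted p = 0.0657), nor without vector replicate 1 or 3 or shMETTL3 replicate 1 or 2 (adjusted p from 0.065 to 0.0889). SERPING1, the C1 inhibitor of complement, had 1, 2 and 0 counts with vector and 4, 5 and 1 with shMETTL3. SERPINC1, antithrombin, had no count with vector and 2, 2 and 3 with shMETTL3. SERPIND1, heparin cofactor II, had none, and SERPINI2 had 1 count in all.

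In all, 19 members were not tested. Of these, 5 had 0 counts in every library, 14 (those 5 included) were at or under the floor of 3 counts in every library, and 5 exceeded it somewhere, with 15 counts as the highest. Among them SERPINA5, SERPINB5 and SERPINC1 had values without overlap between vector and shMETTL3, at counts of at most 15 and too few to be kept for the test. For SERPINE3 the lack of overlap in CPM rests on scaling alone, since replicate 3 of either group held 1 count.

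Levels were compared between genes as CPM per kb of the canonical transcript. In vector cells SERPINB6 (77.2 ± 3.64, SD, n = 3) and SERPINB1 (75.3 ± 2.54) came first among the rows described, with overlapping libraries. SERPINH1 (39.2), SERPINE2 (21.7) and SERPINB9 (14.4) followed, each clear of its neighbours. In shMETTL3 cells SERPINB6 (73.6) was followed by SERPINE2 (58.0), SERPINB1 (47.5) and SERPINH1 (40.1), with no overlap between neighbours. SERPINB7 went from the 12th place of the rows described (0.575) to the 5th (13.7), where it stood clear of SERPINH1 and of SERPINI1 (9.46). In vector cells it lay in a run of genes from SERPINA6 to SERPINB5, each overlapping the next. This order depends on the length used. The annotated exons of SERPINB6 cover 13201 bases against 1315 for the canonical transcript, and those of SERPINE2 8957 against 2226. Per kb of all exons, vector cells had SERPINB1 at 61.2, SERPINB9 at 14.4, SERPINH1 at 12.8, SERPINB6 at 7.69 and SERPINE2 at 5.39 CPM per kb. On that scale SERPINB1 (38.6) stood above SERPINE2 (14.4) in shMETTL3 cells, with SERPINB6 at 7.33.

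The 34 rows together held 9034, 8664 and 8345 counts with vector and 10275, 10843 and 8722 with shMETTL3. Their summed level was 510.4 ± 7.66 CPM (SD, n = 3) with vector and 540.0 ± 8.6 CPM (SD, n = 3) with shMETTL3. Within that sum the share of SERPINB1 went from 36.5 ± 0.685% to 21.8 ± 0.35% and that of SERPINB9 from 11.7 ± 0.376% to 6.37 ± 0.296% (SD, n = 3 each). The share of SERPINE2 went the other way, from 9.46 ± 0.105% to 23.9 ± 0.395%, as did that of SERPINB7, from 0.247 ± 0.0561% to 5.57 ± 0.316% (SD, n = 3 each). Shares sum to the whole, so they are not independent of each other. SERPINH1 made up 15.8% and 15.3%, and SERPINB6 19.9% and 17.9%.

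**Figure D3:**
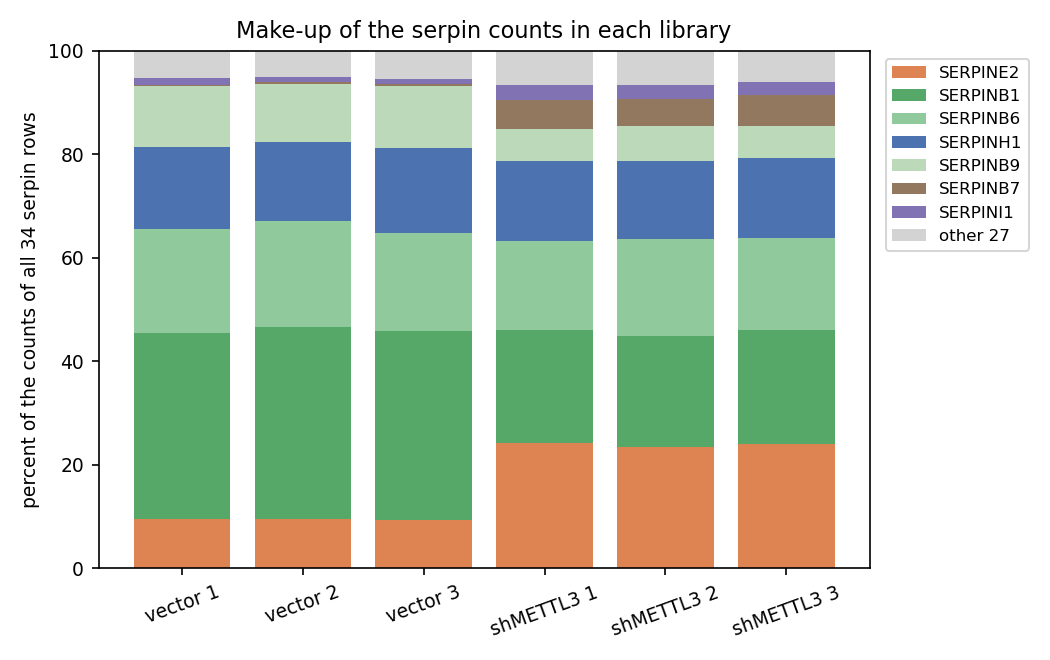
Share of each serpin in the counts of the 34 rows described, 1 bar per library, bars summing to 100%. SERPINE2 fills 9.35% to 9.55% of the vector bars and 23.5% to 24.2% of the shMETTL3 bars, SERPINB1 fills 35.8% to 37.2% and 21.4% to 22.1%, and the bars of a group are nearly alike.

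By position, 27 members fell into 5 clusters of serpins less than 1 Mb apart in GRCh37. The SERPINB cluster of chromosome 18 (61144191 to 61687013) spanned 0.543 Mb with 10 genes. Of its 5 tested genes, SERPINB7, SERPINB8 and SERPINB11 passed the count filter in both groups. Of these, SERPINB7 was higher, SERPINB8 was higher with a call lost in 6 alternatives, and SERPINB11 was not called. SERPINB3 and SERPINB4, also higher, passed through the shMETTL3 libraries only. Among the 11 nearest tested genes outside the naming rule, HMSD included, 3 were higher and 7 lower (33.7% and 32.9% of all genes), with a median log2 fold change of -0.32. Among the 8 that passed the filter in both groups, 3 were higher and 5 lower, with a median of -0.23. The 5 on the left split into 2 higher and 3 lower, and the 5 on the right, of which 1 was higher and 3 lower, lay 2481 kb or more away. Next to the cluster on the left VPS4B had a log2 fold change of 0.39 and KDSR one of -0.14. HMSD, a gene with a serpin domain that begins between SERPINB10 and SERPINB8, fell by 2.67 on the log2 scale (41, 33 and 28 counts with vector and 7, 3 and 7 with shMETTL3, adjusted p = 2.99e-07). It passed the filter through the vector libraries only and shares exons with SERPINB8. These 3 and the neighbours named for the other clusters were chosen after their values were seen.

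The cluster of SERPINB1, SERPINB9 and SERPINB6 on chromosome 6 (2832566 to 2972399) spanned 0.14 Mb, with 2 of 3 genes lower, against 32.9% of all genes. Of its 11 neighbours, 2 were higher and 7 lower (33.7% and 32.9% of all genes), with a median of -0.46. Among the 10 that passed in both groups, 1 was higher and 7 lower, with a median of -0.57. SERPINB9P1, a noncoding gene between SERPINB1 and SERPINB9, fell by 0.68 on the log2 scale (adjusted p = 0.0223) and NQO2 by 0.46 (adjusted p = 3.83e-08), while RIPK1 rose by 0.26 (adjusted p = 0.00313).

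The SERPINA cluster of chromosome 14 (94746797 to 95090392) spanned 0.344 Mb with 10 genes, 8 of them not tested. Calls in this cluster, in those on chromosomes 17 and 3 and among their neighbours stand beside 33.7% of all genes higher and 32.9% lower. Its 10 neighbours comprised 4 higher and 2 lower genes (median 0.12), or 3 and 2 of the 9 that passed in both groups (median -0.01), DICER1, the nearest on the right, being higher (log2 fold change 0.63, adjusted p = 8.32e-10). On chromosome 17 (1646130 to 1680859) SERPINF2 and SERPINF1 lie side by side on the plus strand and moved in opposite directions, and of their 10 neighbours 3 were higher and 3 lower (median 0.03), or 2 and 3 of the 9 that passed in both groups (median -0.02). On chromosome 3 (167159702 to 167543357) SERPINI1 was higher and SERPINI2 was not tested. PDCD10 between them was not called (0.08 on the log2 scale, adjusted p = 0.269), and of the 11 neighbours 3 were higher and 6 lower (median -0.16). The remaining 7 members lie alone: SERPINE2, SERPINE3, SERPINH1, SERPINC1, SERPIND1, SERPING1 and SERPINA7.

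**Figure D4:**
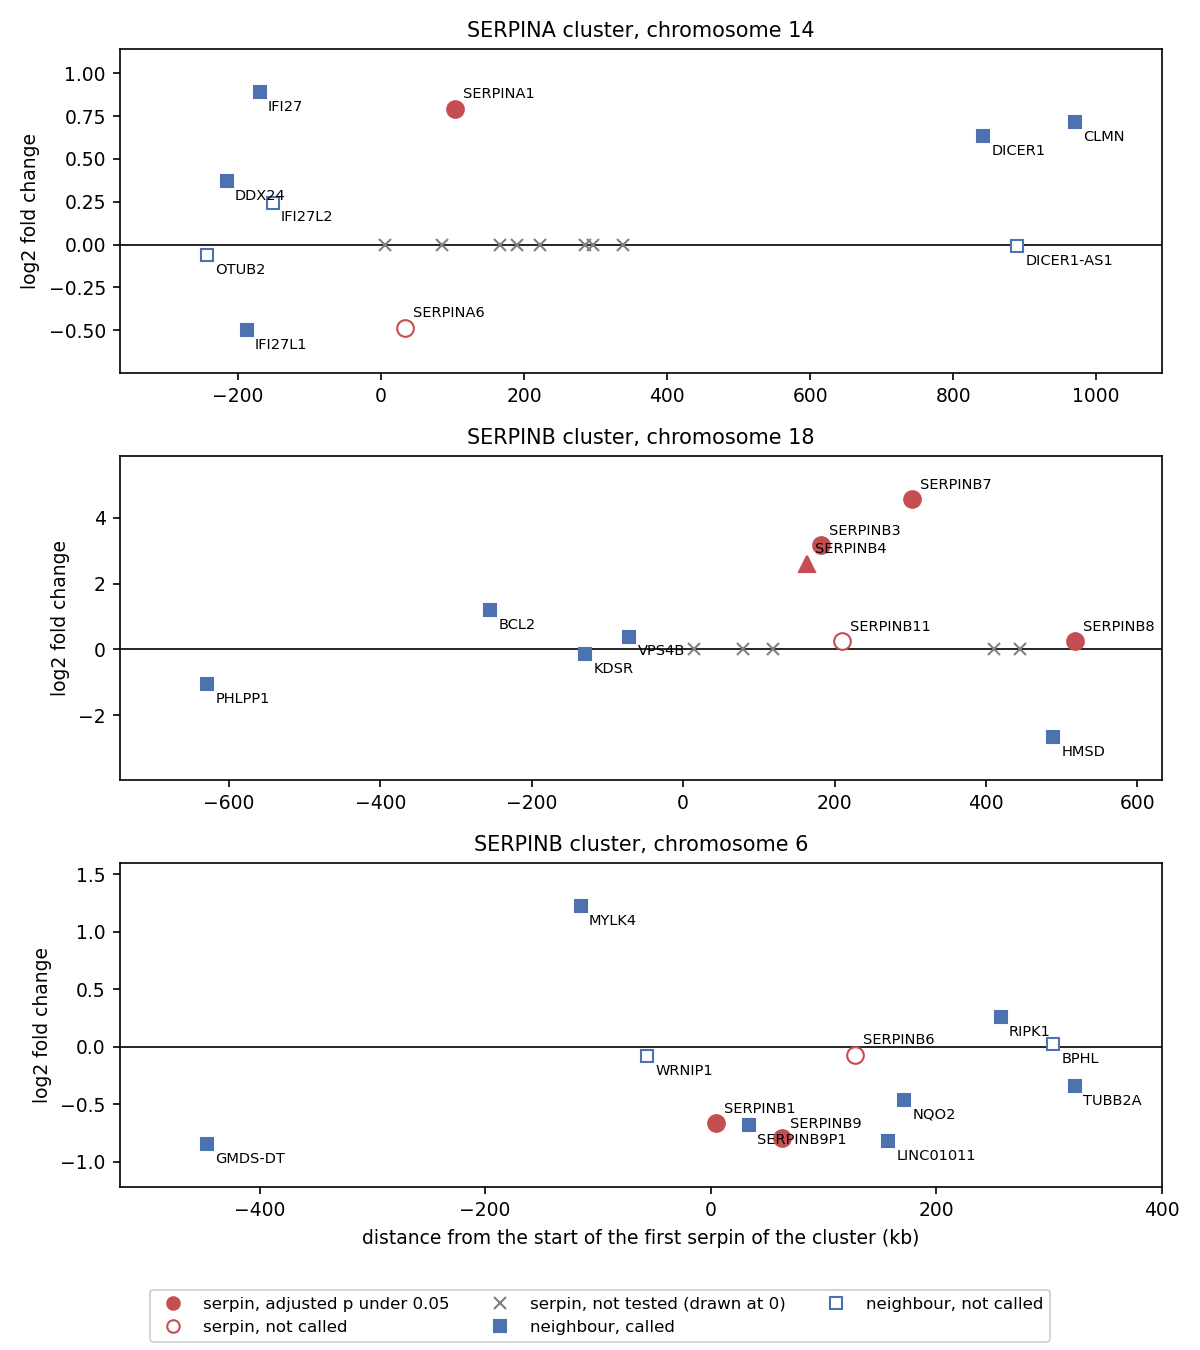
Log2 fold change against distance in kb from the start of the first serpin of the clusters on chromosomes 14, 18 and 6, with serpins as circles, neighbours as squares, filled where the adjusted p is under 0.05, and serpins that were not tested as crosses at 0. The triangle is the lower bound of SERPINB4, and neighbours whose midpoint lies more than 700 kb from a cluster are not drawn. This leaves out GMDS on chromosome 6, whose near end is 587 kb away (log2 fold change -0.93). On chromosome 18 SERPINB7, SERPINB3 and SERPINB4 stand above the neighbours drawn, and on chromosome 6 SERPINB1 and SERPINB9 lie at -0.66 and -0.79 beside SERPINB9P1 at -0.68.

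Genes that meet the serpins were followed as lists, each to be read against the 33.7% of all genes that were higher and the 32.9% that were lower. Among known target proteases, 20 of 43 genes found were tested, 9 being higher and 6 lower (median log2 fold change 0.35, against 0.00 over all genes). Among the 14 that passed the count filter in both groups, 6 were higher and 6 lower, with a median of 0.11. The largest rises were those of MASP2, a lectin-pathway protease inhibited by C1 inhibitor (log2 fold change 2.60, adjusted p = 1.82e-06), and of the lysosomal cathepsin CTSS (80, 82 and 57 counts with vector and 456, 462 and 387 with shMETTL3; 2.46, adjusted p = 5.91e-17). MASP2 passed the filter through the shMETTL3 libraries only, where it is high. The largest falls were those of the coagulation proteases F2, or prothrombin (-1.51, adjusted p = 4.67e-10), and F12 (-1.39, adjusted p = 4.45e-07).

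In the plasminogen activation list all 23 genes were found and 19 tested, with 8 higher, 7 lower and a median of 0.04. MMP2, a gelatinase, rose from 0.486 ± 0.123 to 5.0 ± 0.328 CPM (SD, n = 3 each; log2 fold change 3.34, adjusted p = 2.89e-12). PLAT, the tissue-type activator and a target of SERPINI1, had 11, 10 and 19 counts with vector and 68, 67 and 42 with shMETTL3 (2.01, adjusted p = 2.25e-07). HGF, a growth factor activated by urokinase-like proteases, fell by 1.21 (adjusted p = 0.00238) and PLAUR, the urokinase receptor, by 0.74 (adjusted p = 4.91e-12) on the log2 scale. MMP2 passed the filter through shMETTL3 only and HGF through vector only. PLAU, urokinase itself and a target of SERPINE2, is named after its values were seen: it had 131 ± 1.81 and 135 ± 5.65 CPM (SD, n = 3 each; log2 fold change 0.04, adjusted p = 0.479).

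Of the inhibitors outside the serpin fold, 23 of 32 were tested, with 11 higher, 9 lower and a median of 0.06. TIMP4, a tissue inhibitor of metalloproteinases, and ITIH2, a hyaluronan-binding inter-alpha-trypsin inhibitor chain, rose most (log2 fold changes 2.12, adjusted p = 4.88e-13, and 1.72, adjusted p = 6.92e-12). The broad-spectrum inhibitors A2M and PZP fell most. A2M had 12, 12 and 15 counts with vector and 1 in each shMETTL3 library (adjusted p = 9.46e-06), and PZP had 25, 24 and 17 with vector and 6, 0 and 1 with shMETTL3 (adjusted p = 5.34e-06). Both passed the filter through the vector libraries only. Among the 20 inhibitors that passed in both groups, 10 were higher and 7 lower, with a median of 0.20.

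Collagen biosynthesis, the pathway of SERPINH1, had 35 of 40 found genes tested, with 22 higher, 5 lower and a median of 0.32 (33 passed in both groups, with a median of 0.46). SERPINH1 itself was not called. COL5A1, a fibrillar collagen chain, rose from 4.78 ± 0.497 to 86.4 ± 1.99 CPM (log2 fold change 4.18, adjusted p = 1.3e-24), and the collagen cross-linking enzyme LOXL2 from 6.09 ± 1.26 to 98.4 ± 4.58 CPM (4.02, adjusted p = 1.38e-23; SD, n = 3 each). PCOLCE, an enhancer of procollagen processing, and the basement membrane chain COL4A3 fell by 0.46 (adjusted p = 0.0171) and 0.34 (adjusted p = 0.000118) on the log2 scale. Fibroblast markers summed to 6.73 to 10.0 CPM with vector and 14.4 to 14.8 CPM with shMETTL3, mostly COL1A1, with 1 of 2 tested markers higher, and COL1A2 and POSTN were at or under the floor in every library.

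Secreted proteins typical of liver, as many clade A serpins are, had 20 of 38 genes tested, with 13 higher, 5 lower and a median of 0.65. The acute-phase protein SAA1 and the heme carrier HPX rose most, both at low level (log2 fold changes 2.93, adjusted p = 2.64e-08, and 2.91, adjusted p = 1.25e-06). Both passed the filter through the shMETTL3 libraries only. Without these and AHSG, for which the same holds, 10 genes were higher and 5 lower of 17, with a median of 0.55. Complement factor I, CFI, fell by 1.91 (adjusted p = 2.5e-11) and the siderophore-binding LCN2 by 1.53 (adjusted p = 3.77e-19) on the log2 scale, the latter from 335 ± 22.1 to 116 ± 3.03 CPM (SD, n = 3 each).

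Among regulators known to act on serpin genes, 33 of 35 were tested, with 13 higher, 10 lower and a median of 0.05, a share near that of all genes. The squamous transcription factor TP63 had 39, 50 and 37 counts with vector and 293, 269 and 269 with shMETTL3 (log2 fold change 2.61, adjusted p = 6.13e-15), and the nuclear receptor PPARG rose by 1.66 (adjusted p = 2.1e-15). The airway and liver factor FOXA1 fell by 1.15 (adjusted p = 6.67e-15) and KLF4 by 0.98 (adjusted p = 7.32e-14) on the log2 scale. TP63 is also a marker of squamous keratinocytes, a cell type known for SERPINB3, SERPINB4 and SERPINB7. That list summed to 56.4 to 64.2 CPM with vector and 58.6 to 69.9 CPM with shMETTL3, led by KRT10, with 1 of 3 tested markers higher and 1 lower, and KRT14, KRT1, LOR and SPRR1B stayed at or under the floor in every library. Leukocyte markers, whose cells carry SERPINB1 and SERPINB9, summed to 1.17 to 1.73 CPM with vector and 6.72 to 7.99 CPM with shMETTL3, most of it CD14, with PTPRC, CD3E and MS4A1 at or under the floor. Endothelial markers summed to 0.478 to 1.71 CPM with vector and 2.24 to 3.27 CPM with shMETTL3, with VWF, KDR, TEK and ERG at or under the floor. The leukocyte and endothelial lists each had 1 of 2 tested markers higher. The part of these markers in the serpin values was not tested.

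**Figure D5:**
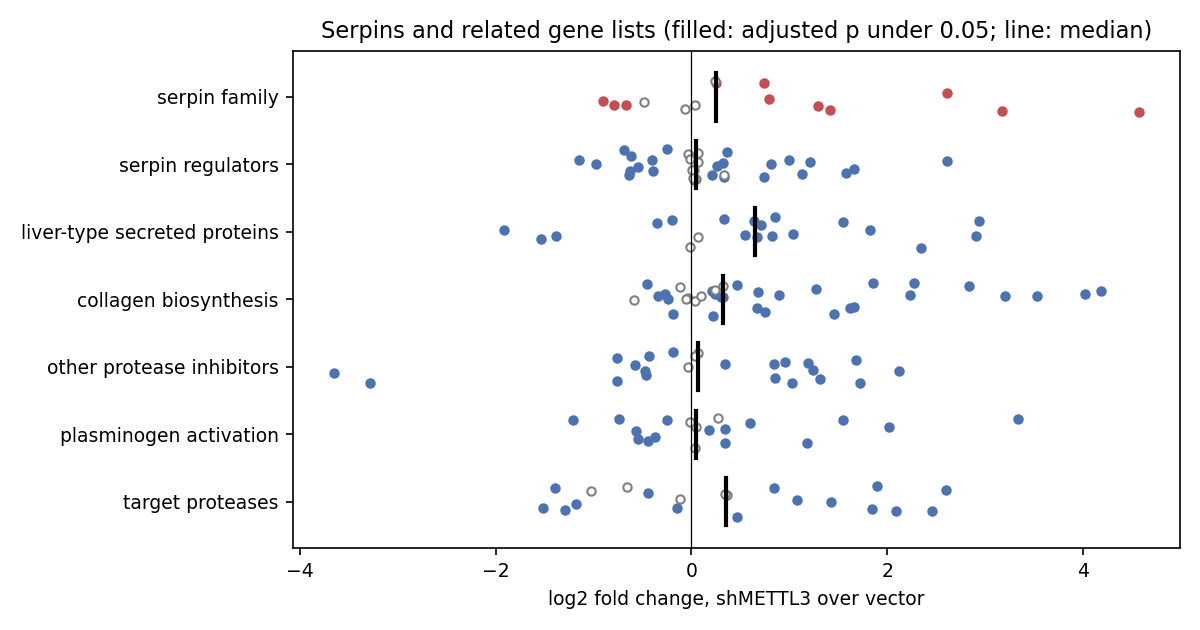
Log2 fold change (shMETTL3 over vector) of every tested gene of the serpin family and of the 6 lists, filled where the adjusted p is under 0.05, with a black line at each median and SERPINB4 at its lower bound. Medians run from 0.04 for plasminogen activation to 0.65 for liver-type secreted proteins, with the serpins at 0.25, and every list holds genes on both sides of 0.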

How the data were processed

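RNA from 6 A549 libraries, 3 vector and 3 shMETTL3, was sequenced. The deposited values are raw counts per gene, which the authors made by mapping reads to hg19 with HISAT2 and counting with HTSeq. The submitters' processing notes list cutadapt 3.0, HISAT2 2.2.1, SAMtools 1.13, HTSeq 0.13.5 and DESeq2, and the paper's methods name other versions. The annotation and strand setting are not given in the sources used here.

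Counts were filtered with filterByExpr, scaled by TMM and tested with edgeR 4.0.16 (glmQLFit, glmQLFTest, group only) in R 4.3.3, two-sided, with Benjamini-Hochberg adjustment over 15125 genes and a threshold of 0.05. A fold against a group at 0 is a bound against 3 counts per library. Single values were also compared by exact permutation of log2(CPM + 0.1). On simulated counts, 97 of 100 genes changed by 1 on the log2 scale and 100 of 100 changed by 2 were recovered, with 9 false calls among 14904 genes. The simulation changed only these genes, drew them from genes with more counts and gave every gene the same spread between libraries. Its rates do not cover serpins with few counts, nor data in which 66.6% of genes changed. Positions came from GENCODE lifted to GRCh37, and 14026 tested genes had one. Promoter windows came from RefSeq GRCh38.p14 and covered 27 members. An item that meets the naming rule is left out of all serpin counts, medians and shares, and it and 1 marker gene are not reported here.

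Groups and replicate numbers came from the sample titles. Pairs of libraries within a group differed by more than sampling noise (chi-square per degree of freedom 2.79 to 7.5, against 79.8 to 98.8 across groups). Members, lists and tests were chosen with earlier results of these data known. Every tested member is named, counts are given for members changed by at least 1 on the log2 scale and the 10 most abundant, and each list is represented by its 2 largest rises and 2 largest falls among called genes. Other genes are named as such. Alternatives were DESeq2 1.42.0 and limma-voom (limma 3.58.1), a replicate block, scaling by RLE, upper quartile or library size, no filter or a minimum of 10 counts per library, other thresholds and each library left out in turn.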

Additional observations from a re-analysis of the deposited data

How the results depend on the processing

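Requiring an absolute log2 fold change of at least 1 left 5 higher and 0 lower serpins and 5 called genes of plasminogen activation, 9 of the other inhibitors, 12 of collagen biosynthesis, 9 of the liver-type proteins and 6 of the regulators. An adjusted p under 0.01 and DESeq2 each left 5 higher serpins against 8. The fold minimum left 0, 2, 6, 4 and 2 called neighbours on chromosomes 14, 17, 18, 3 and 6. The serpin median was 0.424 with library-size scaling and 0.781 with no filter (29 serpins), against 0.251 and a spread between replicates of 0.168. Library-size scaling put 65.8% of all calls on the higher side against 50.6%, and turned SERPINB6 to 0.104 (adjusted p = 0.11). Replicate numbers did not pair the libraries (correlations of same-numbered deviations 0.0516, -0.00663 and 0.0333); with the replicate block 10111 genes were called against 10067, 8 serpins were higher and 3 lower, their median was 0.248, and METTL3 stood at -1.36. DESeq2 called 9234 genes. With each library left out in turn, higher serpins ranged from 5 to 8, lower from 3 to 4 and their median from 0.228 to 0.325. Called genes ranged from 14 to 16 for target proteases, 14 to 15 for plasminogen activation, 19 to 21 for other inhibitors, 26 to 27 for collagen biosynthesis, 17 to 18 for liver-type proteins and stayed at 23 for regulators. Called neighbours ranged from 5 to 7, 6 to 7, 9 to 10, 8 to 9 and 7 to 9 on those chromosomes, and METTL3 from -1.38 to -1.34. Of 208 single-gene alternatives, 190 kept direction and side of the threshold, 14 lost the call (SERPINA1, SERPINB8, SERPINF1), 3 gained it (SERPINA6, SERPINB11, SERPINH1) and 1 reversed. The cause of these shifts was not tested. Counts of the 19 serpins left out of the test were at most 15, and the effect of sequencing depth on them was not tested.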

Other observations

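Serpin genes and relatives outside the naming rule were also read, chosen after their values were seen. AGT encodes angiotensinogen, a serpin of clade A that keeps its older name and inhibits no protease. It had no count in any vector library and 12, 29 and 9 counts with shMETTL3, or 0.877 ± 0.492 CPM (SD, n = 3), at least 4.97-fold higher than the mean vector floor of 3 counts per library (adjusted p = 2.78e-06). It passed the count filter through the shMETTL3 libraries only, where it is high. SERPINH1P1, a pseudogene of SERPINH1, had 1, 0 and 1 counts with vector and 0, 0 and 1 with shMETTL3. The rows of SERPINA13P, SERPINA15P, SERPINA7P1, SERPINB8P1 and SERPINE4P had 0 counts in every library. SERPINB9P1 had 39, 27 and 51 counts with vector and 27, 32 and 20 with shMETTL3, so its counts overlapped. In CPM its groups were parted by scaling alone, at 1.61 in vector replicate 2 against 1.59 in shMETTL3 replicate 2. Groups without overlap in CPM were found for 69.4% of all genes tested.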
